A study of Mus musculus with 12 samples.

Results

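Bulk RNA sequencing libraries of mouse brain that were rich in striatal transcripts were set against libraries that were poor in them. Both sides were low in a cerebellar transcript. The series holds 12 libraries, each from 1 mouse of the amyloid-depositing transgenic model 5xFAD, with 3 mice in each of the groups ShK-223, PAP-1, Control and PBS. Of these, 7 libraries held nearly no transcript of Gabra6, which encodes a GABA receptor subunit that cerebellar granule cells carry, with a level below 2 CPM (the count scaled to a library total of 1000000). Among these 7, the 4 libraries with at least 25 CPM of Adora2a, the adenosine receptor of striatal neurons, were selected as the striatum-rich side, and the 3 below 25 CPM as the striatum-poor side. The rich libraries are ShK-223 2 and 3 and Control 1 and 3, and the poor libraries are ShK-223 1 and PAP-1 2 and 3, so the split crosses the treatments. ShK-223 is a peptide modelled on a toxin of a sea anemone, PAP-1 is a small organic compound, and both are blockers of Kv1.3, the potassium channel encoded by Kcna3. All 7 mice carried the 5xFAD transgenes, whose expression is driven by the Thy1 promoter in neurons, the strain is labelled as not specified, and the tissue of every library is labelled whole brain. The sources used here do not give dose, route, duration or age, nor what sets the Control mice apart from those given PBS.

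The sides were chosen by the measured levels of Gabra6 and Adora2a, so these values are a description and carry no test. Of the column totals, Adora2a took 71.0 and 32.0 CPM in ShK-223 2 and 3 and 104 and 91.0 CPM in Control 1 and 3. It took 2.21 CPM in ShK-223 1 and 2.10 and 5.79 CPM in PAP-1 2 and 3. The library just inside the limit was ShK-223 3 at 32.0 CPM and the library just outside it was PAP-1 3 at 5.79 CPM, so no library lay near 25 CPM. In the remaining 5 libraries, which held 58.8 to 457 CPM of Gabra6 and are not on either side, Adora2a lay between 1.02 and 13.4 CPM. Because the sides were selected on a transcript of these same libraries, every gene below is described by its values and by whether the sides overlap, with no p-value.

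The striatum is the main input nucleus of the basal ganglia, and most of its neurons are GABAergic projection neurons. Those of the direct pathway carry the dopamine receptor Drd1 and the peptides encoded by Tac1 and Pdyn, and those of the indirect pathway carry the dopamine receptor Drd2, the adenosine receptor Adora2a and the peptide precursor Penk. In these cells Drd1 and Adora2a act through a G protein that holds Gnal, the adenylyl cyclase Adcy5, cyclic AMP and the phosphatase inhibitor Ppp1r1b, also called DARPP-32. Cholinergic interneurons are few but release acetylcholine throughout the striatum. In bulk RNA, fewer cells of a type and less RNA per cell cannot be told apart.

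Upstream sequences are shown for a direct-pathway receptor, an indirect-pathway receptor and a direct-pathway peptide, because these genes lie on different chromosomes and were all higher on the rich side. They are from RefSeq on GRCm38.p6, read 5′ to 3′, and end before the first transcribed base of both RefSeq and GENCODE. Capitals mark CGTCA or its reverse complement TGACG, the core of the cyclic AMP response element, searched on both strands.
Drd1 (chr13:54055706-54055908, minus strand): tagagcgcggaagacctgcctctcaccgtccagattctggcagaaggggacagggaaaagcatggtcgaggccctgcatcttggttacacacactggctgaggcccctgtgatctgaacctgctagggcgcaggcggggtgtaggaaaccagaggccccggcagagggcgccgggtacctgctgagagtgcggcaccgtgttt
Drd2 (chr9:49340153-49340402, plus strand): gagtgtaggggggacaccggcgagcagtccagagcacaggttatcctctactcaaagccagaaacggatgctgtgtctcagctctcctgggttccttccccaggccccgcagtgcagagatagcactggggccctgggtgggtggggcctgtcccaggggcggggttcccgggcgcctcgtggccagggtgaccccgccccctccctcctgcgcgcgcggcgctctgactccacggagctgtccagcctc
Tac1 (chr6:7554811-7554878, plus strand): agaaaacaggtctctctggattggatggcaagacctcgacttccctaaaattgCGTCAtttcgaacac

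In the 250 bases before the RefSeq start, the motif was absent from Drd1 and Drd2 and occurred 2 times in Tac1, at 197 and 43 bases before the start. The site at 43 bases lies past the GENCODE start of Tac1 and outside the stretch printed above. RefSeq lists 2 starts for Drd1, and the first was used. Upstream sequences were found for 28 of the 38 genes on the lists of striatal projection neurons, and 14.29% of the 28 held the motif, against 17.86% of 27025 genes in all. A match to these 5 letters is a description of the window and not a binding site.

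The libraries of the 2 sides were alike in depth and RNA integrity. Total counts lay between 15325205 and 19048551 per library and the mean difference, rich minus poor, was -157416 counts (exact permutation test over 35 splits, two-sided, p = 0.971). The RNA integrity number averaged 8.25 ± 0.265 (SD, n = 4) on the rich side and 8.23 ± 0.586 (n = 3) on the poor side, with p = 1 in the same exact test, whose smallest possible p is 0.0286. Between 16845 and 17142 genes had at least 1 count. The labels also give a batch name and do not say what it stands for. Batch CH holds ShK-223 3 and Control 3 on the rich side and ShK-223 1 on the poor side, batch B holds ShK-223 2 and Control 1 on the rich side and PAP-1 3 on the poor side, and batch C holds only PAP-1 2. Both Control libraries lie on the rich side and both PAP-1 libraries on the poor side, so only ShK-223 has libraries on both.

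Transcripts of striatal projection neurons, cholinergic neurons and myelin were higher in the striatum-rich libraries, and single genes of hippocampal neurons, other neurons and fibroblasts were lower. A gene is called higher or lower here where every rich library lay above or below every poor library and the difference of the mean log2 CPM, rich minus poor, was at least 1. This rule called 157 of 15061 genes higher (1.04%) and 121 lower (0.803%). Without the size limit, 9.59% of genes lay higher without overlap and 9.20% lower. Unless stated otherwise, CPM below are scaled by the TMM method, which adjusts library totals for composition and sets the median difference over all genes near 0, here 0.000546.

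All 4 transcripts given as markers of the striatum separated the sides, Adora2a being the one that chose them. Adora2a (GRCm38 chromosome 10, 75316877 to 75334784, plus strand) was at 72.8 and 32.7 CPM in ShK-223 2 and 3 and 104 and 91.1 CPM in Control 1 and 3, against 2.18 CPM in ShK-223 1 and 2.11 and 5.87 CPM in PAP-1 2 and 3. Drd2 (chromosome 9, 49340627 to 49408177, plus strand), which also restrains dopamine release from midbrain axons, was at 60.1, 28, 86.0 and 69.0 CPM in ShK-223 2, ShK-223 3, Control 1 and Control 3. On the poor side Drd2 was at 3.82, 2.80 and 5.01 CPM in ShK-223 1, PAP-1 2 and PAP-1 3. The log2 difference was 4.46 for Adora2a and 3.85 for Drd2, and neither gene had any poor library within reach of the lowest rich one. Drd1 (chromosome 13, 54051183 to 54055705, minus strand), the excitatory dopamine receptor of the direct pathway, was at 48.3, 23.0, 79.6 and 57.8 CPM in the 4 rich libraries in the same order. In ShK-223 1, PAP-1 2 and PAP-1 3 it was at 11.7, 7.14 and 13.7 CPM, a log2 difference of 2.17. Ppp1r1b (chromosome 11, 98348404 to 98357796, plus strand) averaged 293 ± 99.3 CPM on the rich side (SD, n = 4) and 52.5 ± 12.1 CPM on the poor side (SD, n = 3), a log2 difference of 2.43. The 3 markers that did not choose the sides thus separated them too, while no marker was at 0 in any poor library.

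**Figure D1:**
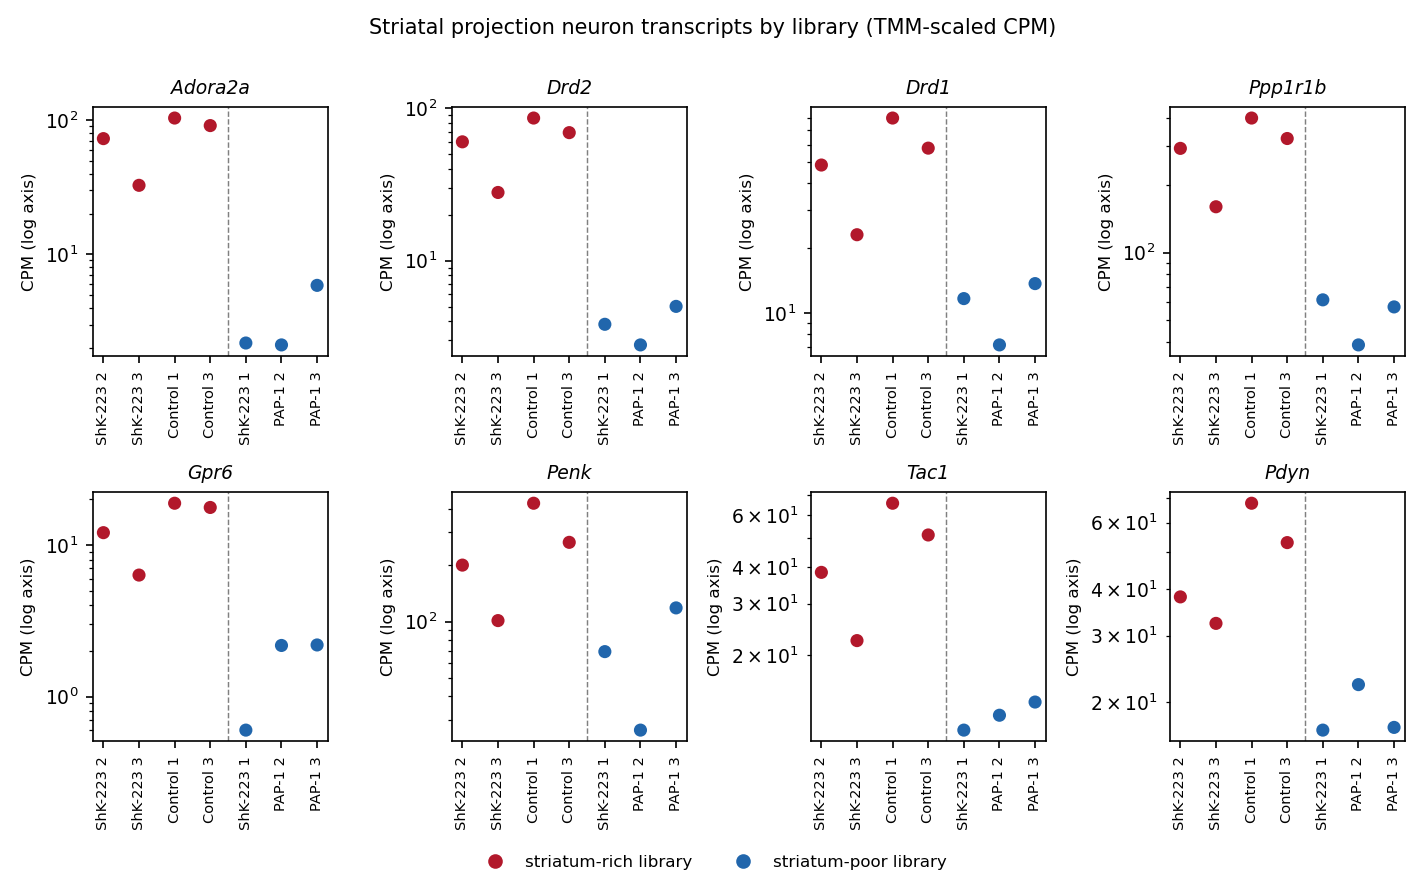
Each panel plots 1 transcript of striatal projection neurons, in CPM scaled by TMM on a log axis, with 1 point per library, red for striatum-rich and blue for striatum-poor. ShK-223 3 is the lowest rich library in every panel and Penk is the only one of the 8 genes whose sides overlap, ShK-223 3 at 101 CPM lying below PAP-1 3 at 118 CPM.

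Indirect-pathway genes were higher on the rich side for 4 of 6 list members, of which Adora2a is fixed by the choice of sides. Direct-pathway genes were higher for 5 of 8, where 1.04% of all genes were. The median log2 difference was 2.45 over the indirect list, or 1.86 without Adora2a, and 1.51 over the direct list. Gpr6, an orphan receptor of indirect-pathway neurons, was at 12.0, 6.32, 18.8 and 17.6 CPM in ShK-223 2, ShK-223 3, Control 1 and Control 3, against 0.601, 2.17 and 2.19 CPM in ShK-223 1, PAP-1 2 and PAP-1 3. The transcription factor Sp9, needed for indirect-pathway neurons to form, averaged 11.0 ± 2.45 and 4.62 ± 2.27 CPM on the rich and the poor side. Penk (chromosome 4, 4133531 to 4138819, minus strand), the precursor of the enkephalins, was at 200.1, 101, 427 and 265 CPM in the rich libraries and at 69.2, 26.4 and 118 CPM in the poor ones, so the sides overlapped. Gpr52, an orphan receptor, lay higher without overlap at a log2 difference of 0.90.

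Among direct-pathway genes, the peptide precursors were graded. Tac1 (chromosome 6, 7554879 to 7565834, plus strand), which encodes substance P, was at 38.3, 22.4, 65.8 and 51.3 CPM in ShK-223 2, ShK-223 3, Control 1 and Control 3. In ShK-223 1, PAP-1 2 and PAP-1 3 it was at 11.1, 12.5 and 13.9 CPM, a narrower spread than among the rich libraries. Pdyn (chromosome 2, 129686565 to 129699844, minus strand), the precursor of the dynorphins, averaged 47.8 ± 15.8 CPM on the rich side and 18.7 ± 3.05 CPM on the poor side. Isl1, a transcription factor of direct-pathway and cholinergic neurons, was at 2.95 to 5.21 CPM in the rich libraries and at 0 to 0.403 CPM in the poor ones, a log2 difference of 4.21 that rests on few counts. Slc35d3, which is needed for Drd1 to reach the cell surface, differed by 2.82. The muscarinic receptor Chrm4 (0.29), Sfxn1 (-0.04) and Eya1 (-0.21) had sides that overlapped.

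Of 24 genes shared by both kinds of projection neuron, 18 were higher by the call rule, where 1.04% of all genes were. Another 3 lay higher without overlap and 0 were lower, with a median log2 difference of 1.45. Rgs9 (chromosome 11, 109225355 to 109298129, minus strand), which shortens the signal of dopamine and opioid receptors, was at 167, 74.6, 259 and 211 CPM in ShK-223 2, ShK-223 3, Control 1 and Control 3, against 23.8, 13.3 and 23.0 CPM in ShK-223 1, PAP-1 2 and PAP-1 3. The sodium channel subunit Scn4b averaged 341 ± 82.3 CPM on the rich side and 50.5 ± 18.3 CPM on the poor side, and the small GTPase Rasd2 averaged 247 ± 68.3 and 59.6 ± 18.5 CPM in the same order. Syndig1l differed by 2.69 and Lrrc10b by 2.40. The 3 members that lay higher by less than 1 were the calcium sensor Hpca (0.52), the phosphatase Ptpn5 (0.46) and Arpp21 (0.39). Ankrd63 (1.39), Bcl11b (0.65) and Tmem158 (0.55) overlapped.

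Dopamine, adenosine and cyclic AMP signalling held receptors, G protein subunits and phosphodiesterases that were higher on the rich side. Of 27 of 28 list members that passed the filter on low counts, 11 were higher and 0 lower, where 1.04% and 0.803% of all genes were. The 11 include Adora2a, which is fixed by the choice of sides, and the other markers Drd1, Drd2 and Ppp1r1b. Pde10a, the phosphodiesterase of striatal projection neurons that degrades cyclic AMP and cyclic GMP, was at 398, 189, 491 and 382 CPM in ShK-223 2, ShK-223 3, Control 1 and Control 3, against 66.2, 64.2 and 78.7 CPM in ShK-223 1, PAP-1 2 and PAP-1 3. The lowest rich library was thus above all poor libraries, which lay close together. Gng7 (1.65), Pde7b (1.57), Adcy5 (1.16), Pde1b (1.15) and Gnal (1.07), all of them parts of cyclic AMP synthesis or breakdown, were also higher. The kinase subunits Prkaca (-0.20) and Prkar1a (-0.17) lay lower without overlap, the transcription factor Creb1 (0.17) lay higher without overlap, and Adora1 (0.08), Gnas (-0.15) and Cdk5 (0.01) overlapped. Drd3 did not pass the filter.

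Of 15 transcription factors of striatal neurons, 7 were higher and 0 lower, where 1.04% and 0.803% of all genes were. The median log2 difference was 0.89. Six3, which acts in indirect-pathway neurons, was at 16.1, 13.2, 31.7 and 21.1 CPM in ShK-223 2, ShK-223 3, Control 1 and Control 3, and at 5.19, 2.80 and 3.28 CPM in ShK-223 1, PAP-1 2 and PAP-1 3. Foxp2 averaged 33.6 ± 8.61 and 12.2 ± 1.46 CPM on the rich and the poor side. The retinoid receptors Rxrg (1.85) and Rarb (1.70) and the homeobox factor Dlx6 (1.44) were called, with Isl1 and Sp9 from the lists above. Foxp1 (0.89) and Meis2 (0.86), which other forebrain neurons also use, lay higher without overlap but under the size limit.

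Receptors of striatal neurons that other regions also carry differed less. Of 15 members, 2 were higher, Gpr149 among them, where 1.04% of all genes were, and 0 were lower. The median log2 difference was 0.29. Gpr149 was at 2.07 to 4.35 CPM in the rich libraries and at 0.546 to 0.921 CPM in the poor ones. The cannabinoid receptor Cnr1 averaged 142 ± 9.84 CPM on the rich side and 156 ± 11.6 CPM on the poor side, with overlap. The kappa opioid receptor Oprk1 was at 8.73 to 30.9 and 3.06 to 11.6 CPM on the rich and the poor side, also with overlap.

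All 6 genes of cholinergic neurons were higher on the rich side, where 1.04% of all genes were, with a median log2 difference of 2.45. Chat (chromosome 14, 32408203 to 32465989, minus strand), the enzyme that makes acetylcholine, was at 5.26, 3.59, 8.95 and 6.44 CPM in ShK-223 2, ShK-223 3, Control 1 and Control 3, against 0.655, 0.629 and 0.518 CPM in ShK-223 1, PAP-1 2 and PAP-1 3. The choline transporter Slc5a7 averaged 6.93 ± 2.41 CPM on the rich side and 1.78 ± 0.432 CPM on the poor side. The transcription factor Lhx8 differed by 3.31 and the vesicular transporters Slc18a3 (1.80) and Slc17a8 (1.33) by less, with Lhx8 at 0 in ShK-223 1 and PAP-1 2 and at 0.115 CPM in PAP-1 3. Cholinergic neurons of the basal forebrain also express these genes.

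The rich libraries themselves formed a graded series. Over the 27 genes of the projection neuron lists that were called, the median level relative to Control 1 was 70.9% in ShK-223 2, 40.2% in ShK-223 3 and 85.1% in Control 3. On the poor side it was 14.7% in ShK-223 1, 18.6% in PAP-1 2 and 22.5% in PAP-1 3. The 27 genes, Adora2a among them, were selected for being higher on the rich side, so a low level on the poor side was fixed beforehand. Among all 157 genes called higher, 91 had their highest rich value in Control 1 and 109 their lowest rich value in ShK-223 3, and 62 followed the order Control 1, Control 3, ShK-223 2, ShK-223 3. The relative level varied between genes in the same library, in ShK-223 3 between 26.5% for Rxrg and 62.7% for Sp9, and in PAP-1 3 between 5.67% for Adora2a and 56.4% for Sp9.

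**Figure D2:**
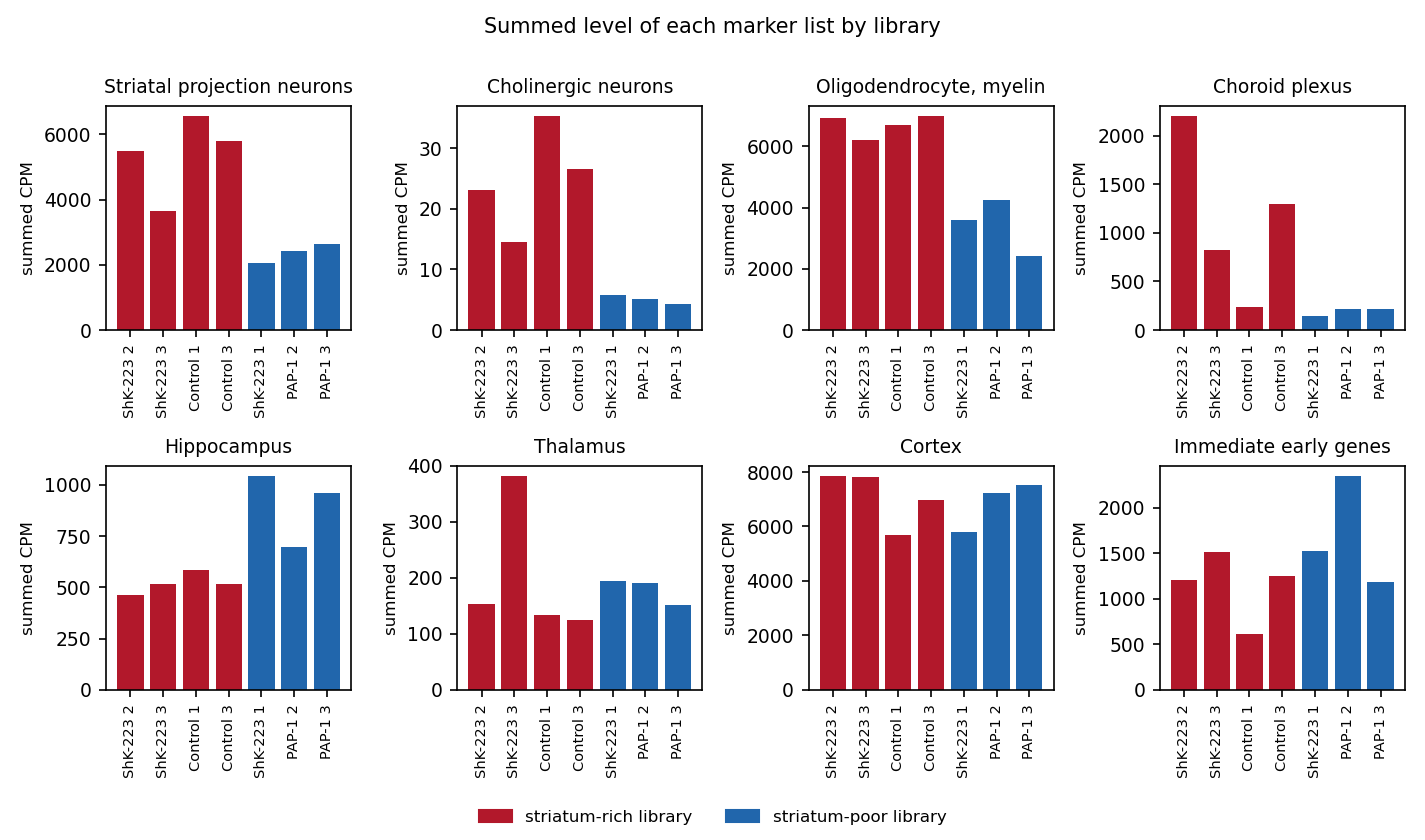
Bars give the summed CPM of all members of a marker list in each of the 7 libraries, red for striatum-rich and blue for striatum-poor. The projection neuron genes sum to 3662 to 6548 CPM on the rich side and 2059 to 2638 CPM on the poor side, while the thalamus list stands highest in ShK-223 3 at 381 CPM and the choroid plexus list is low in the rich library Control 1 at 239 CPM.

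Beyond the lists, the genes with the largest differences on the rich side, at a mean log2 CPM of at least 1, included several that followed the same graded order. Cd4, known as the co-receptor of helper T cells, was at 19.3, 11.4, 29.6 and 23.7 CPM in ShK-223 2, ShK-223 3, Control 1 and Control 3, against 0.710, 0.800 and 1.27 CPM in ShK-223 1, PAP-1 2 and PAP-1 3, a log2 difference of 4.29. Serpina9, a member of the serine protease inhibitor family, was at 5.68 to 24.1 and 0.229 to 2.24 CPM on the rich and the poor side, a difference of 3.57. Ptprv (3.04), of the receptor tyrosine phosphatase family, and Sh3rf2 (3.00) were also among the 10 largest. The others were Adora2a, Drd2, Rgs9, Chat, Gpr6 and F5, of which F5 belongs to the choroid plexus list.

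Myelin transcripts were about as high in each of the rich libraries and lower in each of the poor ones. All 17 members of the oligodendrocyte list lay higher on the rich side without overlap, where 9.59% of all genes did. Of these, 12 also differed by at least 1, where 1.04% of all genes met both limits. The median log2 difference was 1.06. Mobp, a protein of compact central myelin, was at 1056, 984, 922 and 1096 CPM in ShK-223 2, ShK-223 3, Control 1 and Control 3, against 531, 609 and 335 CPM in ShK-223 1, PAP-1 2 and PAP-1 3, a log2 difference of 1.09. Mbp, myelin basic protein, averaged 2612 ± 122 and 1374 ± 362 CPM on the rich and the poor side. Mog (1.01) and the transcription factor Myrf (1.06) were called as well, and Sox10 (0.69) lay higher under the size limit. The rich libraries did not show the graded order here, their list sums being 6926, 6195, 6710 and 6973 CPM in ShK-223 2, ShK-223 3, Control 1 and Control 3, against 3584, 4260 and 2425 CPM in ShK-223 1, PAP-1 2 and PAP-1 3. The count of 12 rests on PAP-1 3, the lowest library: without it 0 members reached the size limit. Of 6 precursor cell genes 0 were called, and the median was 0.14. The part of myelin-rich tissue in the difference between the sides was not tested.

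Choroid plexus transcripts were far higher in 3 of the 4 rich libraries than on the poor side, while Control 1, with a list sum of 239 CPM, lay just above the poor libraries at 148 to 218 CPM. Ttr, transthyretin, the main secreted protein of the choroid plexus, was at 1217, 354, 14.5 and 613 CPM in ShK-223 2, ShK-223 3, Control 1 and Control 3, against 3.93, 4.97 and 66.2 CPM in ShK-223 1, PAP-1 2 and PAP-1 3, so the sides overlapped. Of 14 members, 3 were called higher, where 1.04% of all genes were, with a list median of 2.09. These were Enpp2 (1.66), which makes lysophosphatidic acid, Clic6 (2.74) and F5 (3.64). Without Control 1, 13 of the 14 met the rule. F5, coagulation factor V, was at 23.8, 8.20, 1.1 and 15.9 CPM in the rich libraries in that order and at 0.164, 0.857 and 0.806 CPM in the poor ones. This group thus did not follow the order of the striatal genes, in which Control 1 was mostly the highest.

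Hippocampal genes were lower on the rich side. Of 14 members, 4 were lower by the call rule, where 0.803% of all genes were, and 0 were higher, with a median log2 difference of -0.76. Cpne7 (chromosome 8, 123117374 to 123135182, plus strand), a calcium-dependent membrane-binding protein, was at 34.7, 60.1, 49.8 and 39.4 CPM in ShK-223 2, ShK-223 3, Control 1 and Control 3, against 208, 150.4 and 294 CPM in ShK-223 1, PAP-1 2 and PAP-1 3. Fibcd1 (chromosome 2, 31813290 to 31846005, minus strand), a chitin-binding receptor and marker of hippocampal pyramidal neurons, averaged 13.7 ± 8.36 and 48.4 ± 18.1 CPM on the rich and the poor side. C1ql2, a secreted synaptic protein of dentate granule cells, was at 2.74, 13.4, 1.75 and 0.784 CPM in the rich libraries in that order and at 24.2, 15.8 and 24.7 CPM in the poor ones. The remaining 10 were not called, among them Prox1 (-0.02), a dentate factor, and Zbtb20 (0.24), so the list did not move as 1 block. ShK-223 3 lay nearest to the poor side for C1ql2, and within ShK-223 alone the list median was -0.18.

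**Figure D3:**
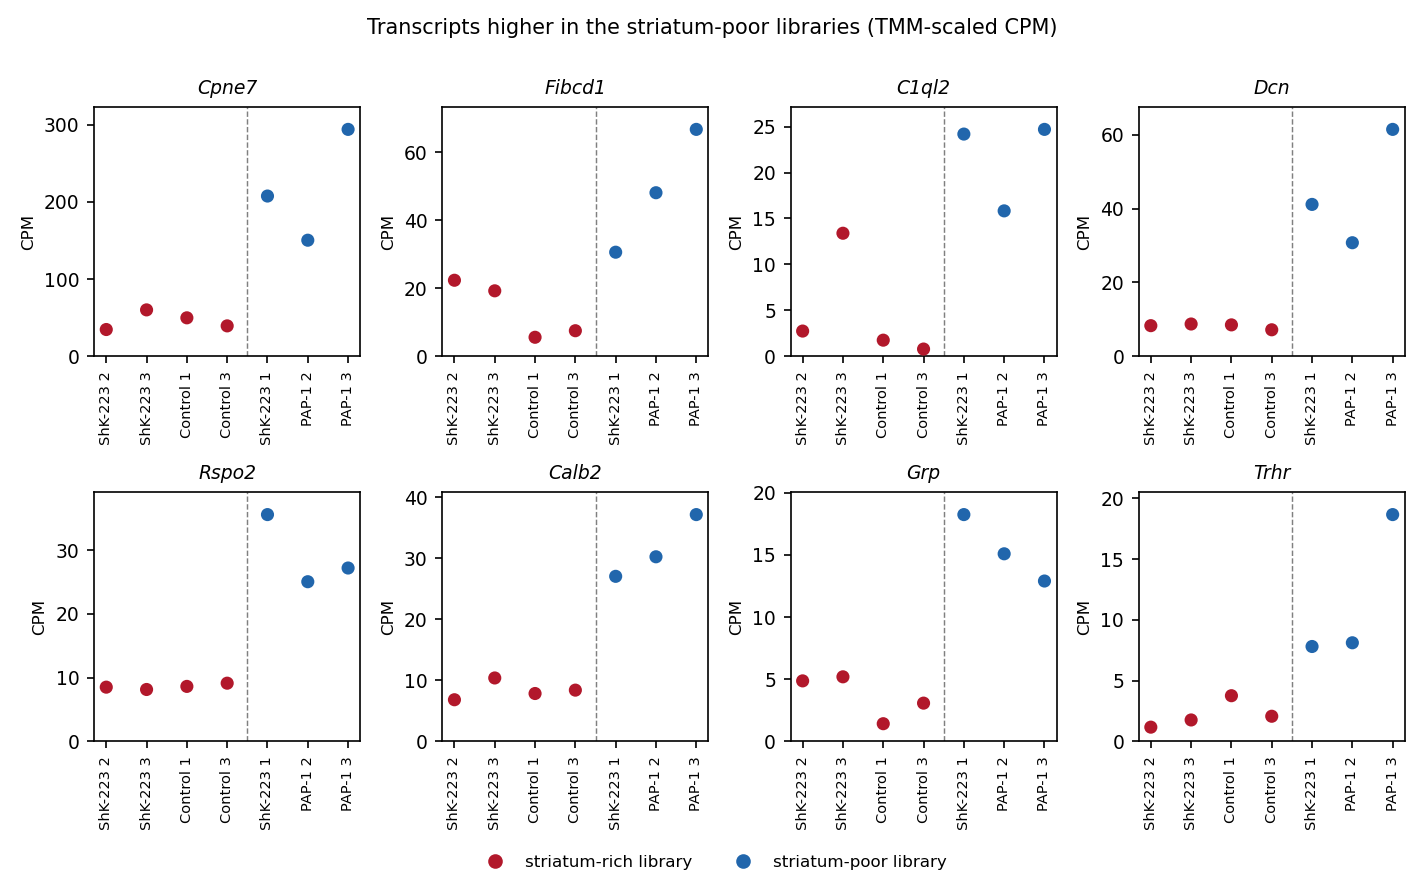
Each panel plots 1 gene that was lower on the striatum-rich side, in CPM scaled by TMM on a linear axis, with 1 point per library, red for striatum-rich and blue for striatum-poor. The 4 rich libraries lie close together for Dcn, between 7.17 and 8.73 CPM, and for Rspo2, between 8.14 and 9.13 CPM, while for C1ql2 and Fibcd1 the ShK-223 libraries stand above the Control libraries on the rich side.

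Further genes that were lower on the rich side came from several regions and cell types. Dcn, decorin, a proteoglycan of meningeal and perivascular fibroblasts, was at 8.28, 8.73, 8.5 and 7.17 CPM in ShK-223 2, ShK-223 3, Control 1 and Control 3, against 41.1, 30.7 and 61.4 CPM in ShK-223 1, PAP-1 2 and PAP-1 3, a log2 difference of -2.37. The other 8 members of the fibroblast list were not called, with a list median of -0.60, and Col1a1 (-0.55) and Lum (-0.66) overlapped. The Wnt enhancer Rspo2 averaged 8.60 ± 0.408 and 29.3 ± 5.56 CPM on the rich and the poor side. Grp, gastrin-releasing peptide, averaged 3.64 ± 1.75 CPM on the rich side and 15.4 ± 2.69 CPM on the poor side, and Trhr, the receptor for thyrotropin-releasing hormone, 2.19 ± 1.11 and 11.5 ± 6.18 CPM. Calb2, calretinin, of interneurons and other neurons, averaged 8.37 ± 1.5 and 31.5 ± 5.17 CPM. It was the only called member of 16 genes of GABAergic neurons, where 0.803% of all genes were called lower. Reln (-0.93) and Nos1 (-0.97) lay lower without overlap. Lhx9 (-2.29), a LIM homeodomain factor, and the scavenger receptor Cd36 (-2.18) complete the 10 largest, with Cd36 at 21.4 CPM in ShK-223 1 and 2.00 and 2.71 CPM in PAP-1 2 and 3, so that its mean rests on 1 poor library.

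Cortical genes differed in both directions and by little. Of 18 members 0 were called in either direction, with 4 higher and 3 lower without overlap, where 9.59% and 9.20% of all genes were, and a median log2 difference of 0.12. Slc17a7, the vesicular glutamate transporter of cortical and hippocampal neurons, averaged 1246 ± 109.8 CPM on the rich side and 1590 ± 134 CPM on the poor side, a difference of -0.35. Camk2a, a kinase of excitatory synapses, averaged 3711 ± 722 and 3470 ± 903 CPM, with overlap. Tbr1 (0.40) and Rorb (0.54) lay higher and Etv1 (-0.45) and Fezf2 (-0.66) lower, all 4 being markers of particular cortical layers.

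Other regional lists were mixed, and their defining genes were low in several libraries. Of 11 thalamic genes tested, Synpo2 (1.34) was higher and Ntng1 (-1.19) lower, where 1.04% and 0.803% of all genes were. The kinase Prkcd was at 24.2, 123, 24.5 and 28.4 CPM in ShK-223 2, ShK-223 3, Control 1 and Control 3, against 23.6, 18.2 and 16.8 CPM in ShK-223 1, PAP-1 2 and PAP-1 3. Of 5 hindbrain genes tested out of 14 listed, Slc6a5, the glycine transporter of inhibitory hindbrain neurons, and Prph, peripherin, were lower, where 0.803% of all genes were. Slc6a5 was at 0.0536 to 0.389 CPM in the rich libraries, against 8.85 CPM in ShK-223 1, 0.972 CPM in PAP-1 2 and 9.27 CPM in PAP-1 3. Of 15 cerebellar genes only Cbln1 was lower, where 0.803% of all genes were. Cbln1 was at 4.14 to 6.55 CPM on the rich side and 10.6 to 18.5 CPM on the poor side, and the median of the cerebellar list was -0.03. Of 6 hypothalamic genes tested out of 15 listed 0 were called. Of 8 midbrain patterning genes Sox14 (-1.85) was lower, where 0.803% of all genes were. Sox14 was at 0 to 0.0560 CPM on the rich side and 0.115 to 0.928 CPM on the poor side, and the median of the midbrain list was -1.08. On the list of dopamine neuron genes, Nr4a2 averaged 28.2 ± 6.44 CPM on the rich side and 76.7 ± 14.8 CPM on the poor side, but this factor also serves cortical neurons, and Th, the enzyme of dopamine synthesis, was at 0.589 to 2.79 and 0.864 to 1.80 CPM on the rich and the poor side. The pituitary hormones Gh and Prl were at 13.8 and 21.4 CPM in PAP-1 2 and at most 1.44 and 3.40 CPM in the other 6 libraries.

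**Figure D4:**
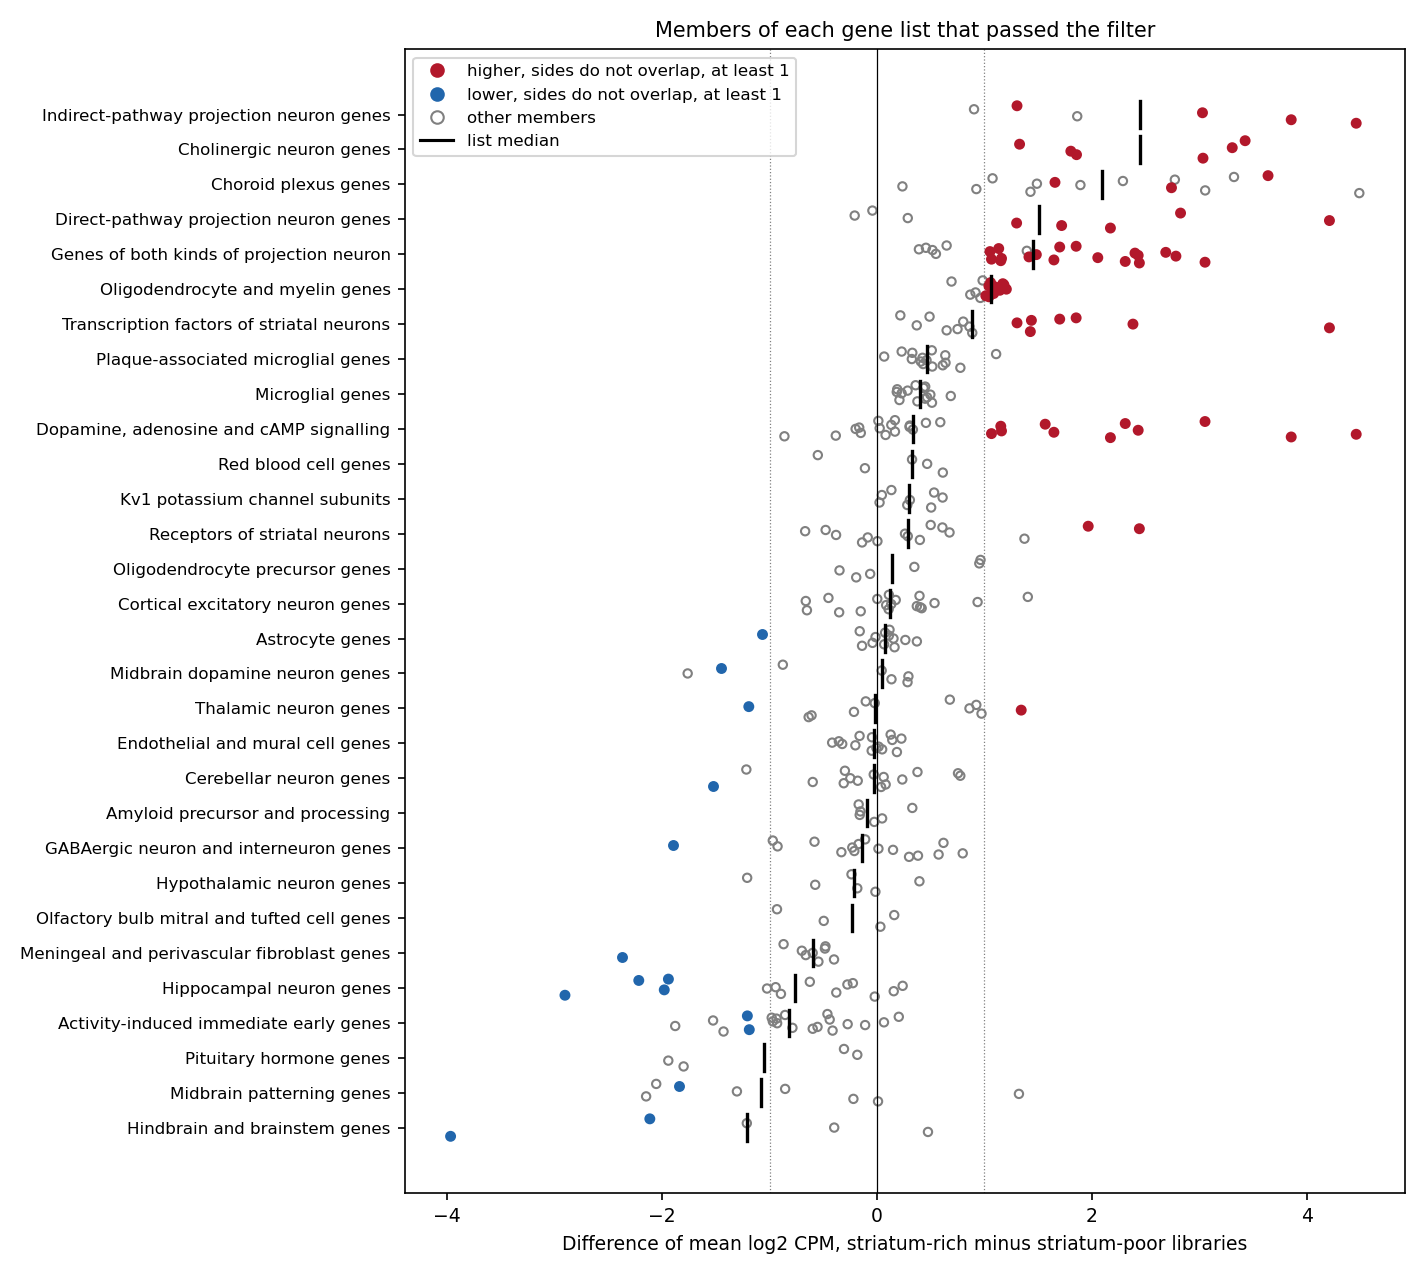
Each row is a gene list and each point a member that passed the filter on low counts, placed by the difference of mean log2 CPM, striatum-rich minus striatum-poor. Filled points meet the call rule and black bars give list medians, which run from 2.45 for indirect-pathway and cholinergic neurons down to -1.21 for the 5 tested hindbrain genes.

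Genes of microglia and amyloid plaques differed by less than the call rule asks. Of 14 microglial genes tested, 6 lay higher on the rich side without overlap and 0 were called, with a median log2 difference of 0.40, and of 15 plaque-associated genes 6 lay higher without overlap and 0 were called (median 0.46), where 9.59% of all genes lay higher without overlap. All 14 and all 15 members had a positive difference. Cst7, an inhibitor of lysosomal proteases that plaque-associated microglia express, was at 40.1, 66.3, 68.1 and 65.5 CPM in ShK-223 2, ShK-223 3, Control 1 and Control 3, against 35.2, 34.1 and 33.4 CPM in ShK-223 1, PAP-1 2 and PAP-1 3. Trem2, the lipid receptor of these cells, averaged 92.0 ± 15.0 CPM on the rich side and 64.5 ± 3.51 CPM on the poor side, a difference of 0.50. The median of the microglial list was 0.03 within ShK-223, 0.13 within batch CH and 0.52 within batch B, and that of the plaque-associated list was 0.18, 0.36 and 0.49. App, the amyloid precursor, averaged 1904 ± 85.1 and 1936 ± 7.56 CPM on the rich and the poor side, and Thy1 2043 ± 226 and 2291 ± 456 CPM, both with overlap.

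Astrocyte and vascular genes did not separate the sides as lists, with medians of 0.08 and -0.03. Of 13 astrocyte genes only Agt, angiotensinogen, was lower, where 0.803% of all genes were. Agt averaged 14.6 ± 6.20 CPM on the rich side and 28.5 ± 1.49 CPM on the poor side. Gfap was highest in Control 1 at 2562 CPM and in ShK-223 1 at 2317 CPM, one library of each side. Kcna3, the channel that both compounds block, was at 3.53, 4.23, 3.24 and 3.70 CPM in ShK-223 2, ShK-223 3, Control 1 and Control 3, against 3.71, 2.86 and 4.38 CPM in ShK-223 1, PAP-1 2 and PAP-1 3, with overlap and a difference of 0.02. Of 8 Kv1 subunit genes 0 were called, and Kcna1 (0.50), Kcna4 (0.31) and Kcnab1 (0.53) lay higher without overlap, where 9.59% of all genes did.

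Of 20 activity-induced immediate early genes 2 were lower, Bdnf and Fosl2, where 0.803% of all genes were, and 0 were higher. The median log2 difference was -0.82. The count rested on single libraries: it was 6 without PAP-1 3, 5 without ShK-223 3 and 1 without Control 1 or PAP-1 2. Bdnf, a neurotrophin, was at 22.4, 22.8, 11.7 and 12.8 CPM in ShK-223 2, ShK-223 3, Control 1 and Control 3, against 66.6, 33.4 and 25.9 CPM in ShK-223 1, PAP-1 2 and PAP-1 3. The list summed to 1210.2, 1514, 609 and 1256 CPM in the rich libraries and to 1525, 2348 and 1184 CPM in the poor ones, so the sides overlapped and the lowest and the highest sum were in Control 1 and PAP-1 2. Arc and Egr1 likewise overlapped.

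Within single labels and batches, the size of the striatal difference depended on the list. Within ShK-223, where 2 rich libraries stand against 1 poor library of the same treatment, the projection neuron list had a median log2 difference of 1.46, within batch CH 1.58 and within batch B 1.49, against 1.45 over all. The median of the direct-pathway list was 1.22, 1.45 and 1.70 in the same order, against 1.51 over all. That of the 4 markers was 2.60, 2.68 and 3.19, against 3.14, and that of the indirect-pathway list 2.52, 2.67 and 2.01, against 2.45. Both the markers and the indirect-pathway list include Adora2a, whose difference is fixed by the choice of sides. Within ShK-223, Drd1 differed by 1.5, Ppp1r1b by 1.81 and Rgs9 by 2.22, each less than over all 7 libraries. The oligodendrocyte list had 0.94, 0.97 and 1.56 in the same order, and the cholinergic list 1.62, 1.86 and 2.79. The fibroblast list had -0.91, -1.01 and -0.30. The poor library is ShK-223 1 both within ShK-223 and within batch CH. These comparisons also share ShK-223 3 on the rich side, so they are not separate repeats. With 1 poor library each, the values within ShK-223 and the batches have no replicate check on the poor side.

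The sides also bear on the labelled comparison of ShK-223 with PAP-1, since 2 of 3 ShK-223 libraries are striatum-rich, while PAP-1 2 and 3 are striatum-poor and PAP-1 1 is on neither side. Of the column totals, Gabra6 took 58.8 CPM in PAP-1 1, against 0.113 and 0.511 CPM in PAP-1 2 and 3. Control 2 likewise stood apart in its group, at 331 CPM. The spread shared by all groups includes these differences, and their effect on the test was not tested. In edgeR's quasi-likelihood test with Benjamini-Hochberg adjustment over all 15061 genes, 0 genes passed at an adjusted p of 0.05 (0%). In the same test 684 genes had an unadjusted p under 0.05, less than the share of 0.05 expected with no difference. DESeq2 called 2 genes higher and 3 lower with ShK-223. The DESeq2 genes, named after their values were seen, were Stac2 (0.63) and Eml1 (0.33), which were higher, and Lypd1 (-1.54), Gpr101 (-3.16) and Bex1 (-0.57), which were lower. Adora2a averaged 35.9 ± 35.4 CPM in ShK-223 and 4.31 ± 1.96 CPM in PAP-1 (SD, n = 3 each), an edgeR log2 fold change of 3.06 (SE 1.48, adjusted p = 0.984). Drd2 averaged 30.6 ± 28.2 CPM in ShK-223 and 3.59 ± 1.23 CPM in PAP-1 (3.09, SE 1.06, edgeR adjusted p = 0.984). In CPM, the difference of the group means was smaller than the SD between ShK-223 libraries for both genes. The same held for Drd1 (1.36, SE 1.12) and Ppp1r1b (1.43, SE 0.60), each with an edgeR adjusted p = 0.984. The unadjusted edgeR p was 0.0638 for Adora2a, 0.0145 for Drd2, 0.251 for Drd1 and 0.0372 for Ppp1r1b. Treatment with PAP-1 and place on the poor side cannot be told apart in these libraries.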

How the data were processed

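The counts per gene that the authors deposited are raw whole numbers, in 21643 rows and 12 columns matched to samples by library name. The submitters' processing notes name GRCm38 (mm10) as the build and STAR 2.7.11a, DESeq2 1.40.2 and R 4.3.2 as tools. The sources used here do not give the counting tool, annotation or strand setting, so reads of overlapping, antisense or near-identical genes may be shared.

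The filter filterByExpr over the labelled groups left 15061 genes, and libraries were scaled with edgeR 4.0.16 (TMM) in R 4.3.3. Log2 CPM used a prior count of 2, to which differences of low genes are sensitive. The sides were chosen on these data, so they are described with no test. RNA integrity and depth by side were compared by exact permutation tests. ShK-223 and PAP-1, the labelled groups, were compared with edgeR's quasi-likelihood test on all 12 libraries, which share 1 estimate of the spread, with DESeq2 1.42.0 as an alternative. The scripts were checked on simulated counts with known changes.

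The members, the 31 gene lists (358 symbols, 357 of them in the table and 330 past the filter) and the naming rule were chosen with earlier results of these data known. The rule names the 4 markers, up to 4 of the most abundant members of each list and each called member, and the 10 largest differences per direction at a mean log2 CPM of at least 1, and not every one of these is reported here. Coordinates are from GENCODE on GRCm38. No library was a copy of another, the chi-square per gene between any 2 being at least 7.16. Labels do not say whether mice shared a litter or cage. The alternatives were RLE or column-total scaling, a prior count of 0.5, other filters, an Adora2a limit of 50 CPM, other size limits, batch as a term, fits of 2 groups alone, a threshold of 0.1, single labels and batches, and leaving out each library.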

Additional observations from a re-analysis of the deposited data

Results flagged for a closer look

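Among 53 values over the 4 striatum-rich libraries, 4 had 1 library far from the others, with a gap to its nearest neighbour above Dixon's critical share of the group's whole range, a limit that chance passes in about 1 in 20 such groups. The thalamus list summed to 381 CPM in ShK-223 3, where the nearest rich library had 153 CPM. C1ql2 was at 13.4 CPM in ShK-223 3, with the nearest rich library at 2.74 CPM. The hypothalamus list summed to 36.3 CPM in Control 1, with the nearest at 10.8 CPM, and the hindbrain list to 1.79 CPM in Control 3, with the nearest at 2.46 CPM. The poor side, with 3 libraries, was too small for this check.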

How the results depend on the processing

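The counts of genes called between the sides, 157 higher and 121 lower, depended most on which libraries were used and on the size asked. With ShK-223 alone the counts were 361 higher and 745 lower, within batch CH 353 and 683, and within batch B 551 and 299, all with 1 poor library. With an Adora2a limit of 50 CPM, which puts ShK-223 3 on the poor side, 56 were lower. With a size limit of 0.5 the counts were 517 and 406, and with no size limit 1445 and 1385. Leaving out each library in turn gave 153 to 235 higher and 123 to 194 lower. Of the repeated list counts 169 stayed within 1.5 times and 29 moved, among them oligodendrocyte genes, with 0 without PAP-1 3, 1 at the 50 CPM limit and 6 within ShK-223. Of the repeated differences of named genes, 390 kept their side of the rule and 6 missed it, none of them reversing: Fibcd1 at -0.56 within ShK-223, and at the 50 CPM limit F5 (2.69), Trhr (-1.64), Cd36 (-1.42), Fibcd1 (-1.91) and Rspo2 (-1.26). The cause was not tested. For ShK-223 against PAP-1, DESeq2 called 2 higher and 3 lower, and leaving out 1 library gave 0 to 1 higher (Abcd2, without ShK-223 1, edgeR adjusted p = 0.0496, named after its value was seen) and 0 lower. The edgeR adjusted p of the 4 markers lay between 0.328 and 1 over all alternatives. The difference in RNA integrity lay between -0.2 and 0.35 when 1 library was left out, turning negative, at -0.1, -0.1 and -0.2, without ShK-223 3, ShK-223 1 and PAP-1 3. No paired analysis was possible because each library is from a different mouse and no label pairs mice across groups. Depth limits genes with few counts, such as Isl1 and Lhx8, whose differences depend on the prior count.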
